A study of Mus musculus with 6 samples.

Results

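The expression of 10 neutrophil genes was followed in 6 mammary tumors grown from 4T1, a mouse carcinoma cell line. The 10 genes were picked by symbol: Elane and Mpo of azurophil granules, Ngp, Camp and Ltf of specific granules, and S100a8, S100a9, Retnlg, Cxcr2 and Csf3r of mature neutrophils. They are 10 of 19937 genes with a probe set that names 1 gene. Each of the 10 had exactly 1 such probe set, so no choice among probe sets by signal was needed, and all 10 were tested without a filter on low values. The symbols were proposed with earlier results of these data known, so the differences between groups are described together with the test over all probe sets and are not independent support for one another.

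The mice were Balb/C animals that each received 750000 4T1 cells in the fourth mammary gland. From day 7 after injection, 3 of the tumors were exposed to TKI258, which the mice took orally once a day at 40 mg/kg over 14 days, and the other 3 came from mice dosed with water on the same schedule. TKI258, also called dovitinib, inhibits several receptor tyrosine kinases, among them the FGF, VEGF and PDGF receptors. All tumors came from 1 cell line and were profiled whole on arrays, 1 array a tumor. A lower signal can mean fewer neutrophils, less transcript per neutrophil or a changed share of other cells. These cannot be told apart in bulk tissue. Epithelial markers were present in all tumors: Krt8 was 11.55 to 11.77 in TKI258 tumors and 11.74 to 11.88 in water tumors on the log2 scale, and Krt18 was 11.13 to 11.44 in TKI258 tumors and 11.58 to 11.70 in water tumors. Of 5 such markers these 2 had lower means in TKI258 tumors (-0.13 and -0.32) and 3 had higher means, Krt19 by 0.19, Epcam by 0.57 and Cdh1 by 0.27.

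Neutrophils make their granule proteins in a fixed order in the bone marrow. Promyelocytes transcribe the azurophil proteases and myeloperoxidase, myelocytes then transcribe the specific granule proteins, and these transcripts decline before the cell enters the blood. Circulating and tissue neutrophils carry transcripts of the chemokine receptor CXCR2, the G-CSF receptor and the calcium-binding proteins S100A8 and S100A9. 4T1 tumors are known for secreting G-CSF and for a large expansion of neutrophils in blood and spleen.

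The upstream sequences of 5 of the genes are shown because their values contrast most: Ngp and Camp, both of the cathelicidin-related family, differed in their values, while the adjacent genes S100a8 and S100a9 and the gene Retnlg had lower means together. All 10 genes matched the RefSeq promoter table (build GRCm38.p6), and the 250 bases before each annotated start are given 5′ to 3′ on the strand of the gene. Capitals mark matches on either strand to TTNCNNAA, letters of C/EBP sites, to GAGGAA, letters of PU.1 sites, and to TATAAA. C/EBP factors and PU.1 direct transcription in granulocytes.
Ngp (chr9:110419558-110419807, plus strand): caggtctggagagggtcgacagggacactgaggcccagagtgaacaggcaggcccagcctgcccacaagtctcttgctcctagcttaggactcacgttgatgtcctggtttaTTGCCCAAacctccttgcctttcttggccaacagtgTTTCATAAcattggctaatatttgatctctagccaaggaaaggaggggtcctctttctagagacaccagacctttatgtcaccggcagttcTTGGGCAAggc
Camp (chr9:109849457-109849706, minus strand): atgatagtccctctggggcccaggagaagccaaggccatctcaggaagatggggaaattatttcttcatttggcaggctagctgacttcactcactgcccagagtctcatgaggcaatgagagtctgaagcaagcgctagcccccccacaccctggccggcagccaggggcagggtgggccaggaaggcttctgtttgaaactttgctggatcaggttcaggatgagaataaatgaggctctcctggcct
S100a8 (chr3:90668821-90669070, plus strand): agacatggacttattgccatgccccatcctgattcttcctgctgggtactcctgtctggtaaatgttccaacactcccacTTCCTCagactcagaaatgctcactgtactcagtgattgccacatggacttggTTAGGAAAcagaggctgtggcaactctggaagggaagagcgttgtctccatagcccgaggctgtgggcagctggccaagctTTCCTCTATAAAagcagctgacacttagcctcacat
S100a9 (chr3:90695722-90695971, minus strand): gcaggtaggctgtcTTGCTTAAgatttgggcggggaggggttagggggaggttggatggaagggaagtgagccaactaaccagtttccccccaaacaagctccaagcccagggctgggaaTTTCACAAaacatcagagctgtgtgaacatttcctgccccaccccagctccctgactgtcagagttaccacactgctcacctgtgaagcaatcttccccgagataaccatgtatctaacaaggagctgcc
Retnlg (chr16:48872358-48872607, plus strand): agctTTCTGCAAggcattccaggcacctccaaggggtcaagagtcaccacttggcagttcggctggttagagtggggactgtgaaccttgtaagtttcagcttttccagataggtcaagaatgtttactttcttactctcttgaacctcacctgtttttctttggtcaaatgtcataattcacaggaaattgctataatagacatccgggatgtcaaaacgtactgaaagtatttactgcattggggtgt

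The Ngp sequence held 3 matches to TTNCNNAA, starting 138, 102 and 11 bases before the start, and the Camp sequence held no match to any of the 3 motifs. The S100a9 sequence held 2 matches to TTNCNNAA and the Retnlg sequence 1. In S100a8 there was 1 match to TTNCNNAA and 2 to GAGGAA, both on the opposite strand, starting 170 and 36 bases before the start. The nearer GAGGAA match stood directly before a TATAAA that began 30 bases before the start, with no overlap. Over the 10 genes, 5 had TTNCNNAA, 6 had GAGGAA and 1 had TATAAA, whereas the shares over all 32851 windows of the table were 36.8%, 23.3% and 12.4%. Among the genes not shown, Ltf, which differed between groups by -0.10, held 2 matches to TTNCNNAA. Cxcr2 and Csf3r, which differed by -0.49 and -0.46, held no match to it, nor did Elane and Mpo. A match is a description of letters and not a bound site, and a link between matches and differences was not tested.

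TKI258 tumors had lower mean signals than water tumors for 8 of the 10 genes, and 43.4% of all genes had a lower mean. The median difference was -0.48 on the log2 scale over the 10 genes and 0.0233 over all genes. No gene of the 10 passed limma's test with Benjamini-Hochberg adjustment over all 34760 probe sets (adjusted p = 0.484 to 0.973), where the share of probe sets that passed was 0%. Before adjustment, limma gave p under 0.05 for 3 of the 10, all lower (Ngp, Retnlg and S100a9), and 0 higher, while 3.35% of all genes were lower and 3.79% higher at that level. All TKI258 tumors lay below all water tumors for 2 of the 10, Ngp and Retnlg, as they did for 6.49% of all genes. The mean was lower by 1 log2 unit or more for 4 of the 10 and for 0.201% of all genes.

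**Figure D1:**
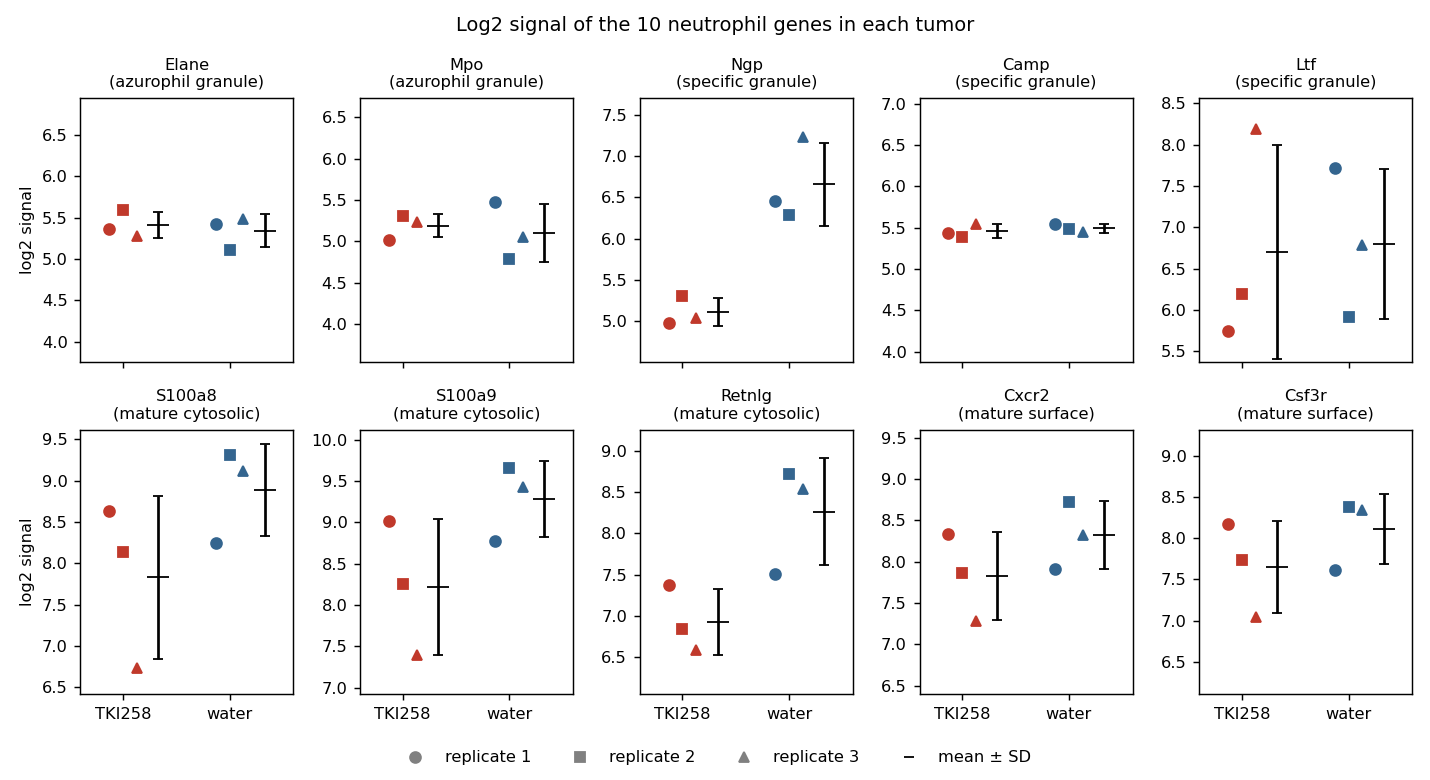
Log2 signal (vertical axis, the same span in each panel) of each gene in 3 TKI258 tumors (red, left) and 3 water tumors (blue, right), with the mean and SD in black. Ngp and Retnlg have no overlap between groups, Elane, Mpo and Camp vary little, and Ltf spreads widely within both groups.

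The azurophil granule genes did not separate the groups. Elane, which encodes neutrophil elastase, had log2 signals of 5.36, 5.59 and 5.28 in TKI258 tumors and 5.42, 5.11 and 5.48 in water tumors, a difference of 0.07 ± 0.14 (± moderated SE; adjusted p = 0.883 by limma). Mpo, which encodes the peroxidase that forms hypochlorous acid, had 5.02, 5.30 and 5.23 in TKI258 tumors against 5.48, 4.79 and 5.05 in water tumors, a difference of 0.08 ± 0.18 (limma adjusted p = 0.907). The groups overlapped for both genes, and the direction turned for Elane without TKI258 replicate 2 (-0.02) or water replicate 2 (-0.04) and for Mpo without water replicate 2 (-0.08) or with array weights (-0.04). Both signals were below the median probe set of the series, which the filter on low signal removed.

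Ngp stood apart among the specific granule genes. It encodes neutrophilic granule protein, a cathelin-like protein stored in specific granules. Its signal was 4.98, 5.31 and 5.04 in TKI258 tumors and 6.46, 6.29 and 7.23 in water tumors. The lowest water tumor was higher than the highest TKI258 tumor by more than the range within the TKI258 group. The means were 5.11 ± 0.17 in TKI258 tumors and 6.66 ± 0.50 in water tumors (SD, n = 3 tumors each) and the log2 difference was -1.55 ± 0.25 (SE; limma adjusted p = 0.484). Leaving out single arrays gave differences between -1.73 and -1.27. The TKI258 signals all lay below the lowest array median, 6.38, as did that of water replicate 2. Whether the TKI258 signals stood above the array's background was not tested, so no fold is given.

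Camp and Ltf did not share the Ngp difference. Camp, which encodes the cathelicidin antimicrobial peptide, was nearly flat, with 5.43, 5.39 and 5.55 in TKI258 tumors and 5.55, 5.48 and 5.45 in water tumors (difference -0.04 ± 0.09, limma adjusted p = 0.913). Its signals also lay below every array median. Ltf, which encodes the iron-binding protein lactoferrin, had the largest SD of the 10 genes in both groups: 5.74, 6.19 and 8.19 in TKI258 tumors and 7.72, 5.91 and 6.78 in water tumors (difference -0.10 ± 0.71, limma adjusted p = 0.973). The high Ltf values were those of TKI258 replicate 3 and water replicate 1, and the direction turned without TKI258 replicate 1 (0.38), TKI258 replicate 2 (0.16) or water replicate 1 (0.36). Those 2 tumors were also the highest in their groups for B cell markers, with means over 7 markers of 9.23 in TKI258 replicate 3 against 5.01 and 5.18 in the other TKI258 tumors, and 7.10 in water replicate 1 against 4.81 and 5.04 in the other water tumors. They were the highest as well for Krt19, a keratin of ductal epithelium, at 9.07 in TKI258 replicate 3 and 8.64 in water replicate 1. Lactoferrin is also made by mammary epithelium. The part of lymphoid or ductal tissue in the Ltf values was not tested.

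The mature cytosolic and secreted genes had lower means in TKI258 tumors. S100a8, which encodes a subunit of calprotectin, a metal-binding complex abundant in neutrophil cytosol, had signals of 8.63, 8.14 and 6.73 in TKI258 tumors against 8.25, 9.31 and 9.12 in water tumors. TKI258 replicate 3 was lowest of the 6, and TKI258 replicate 1 lay above water replicate 1. S100a9, the partner subunit, had 9.02, 8.26 and 7.39 in TKI258 tumors and 8.77, 9.66 and 9.43 in water tumors, with the tumors in the same order. The differences were -1.07 ± 0.51 for S100a8 and -1.06 ± 0.43 for S100a9 (limma adjusted p = 0.652 and 0.615), and both genes were 2.09-fold lower. Without TKI258 replicate 3, S100a8 differed by -0.51 and S100a9 by -0.65, and without TKI258 replicate 1 both differed by -1.46.

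Retnlg, which encodes resistin-like gamma, a secreted protein of the resistin family made by rodent granulocytes, separated the groups. Its signal was 7.37, 6.84 and 6.59 in TKI258 tumors and 7.51, 8.72 and 8.54 in water tumors, and the gap between TKI258 replicate 1 and water replicate 1 was small. The means were 6.93 ± 0.40 in TKI258 tumors and 8.26 ± 0.65 in water tumors (SD, n = 3 tumors each), a 2.51-fold lower level in TKI258 tumors and a log2 difference of -1.33 ± 0.35 (SE; limma adjusted p = 0.567). The difference was between -1.70 and -1.09 when single arrays were left out.

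The receptors of mature neutrophils differed by less. Cxcr2, which encodes the receptor for the chemokines CXCL1, CXCL2 and CXCL5, had 8.34, 7.86 and 7.28 in TKI258 tumors and 7.91, 8.72 and 8.32 in water tumors (difference -0.49 ± 0.31, limma adjusted p = 0.689). Csf3r, which encodes the G-CSF receptor, had 8.17, 7.74 and 7.05 in TKI258 tumors and 7.62, 8.38 and 8.34 in water tumors (difference -0.46 ± 0.32, limma adjusted p = 0.713). For both receptors TKI258 replicate 1 lay above water replicate 1, and the groups overlapped. Without TKI258 replicate 3 the differences were -0.22 for Cxcr2 and -0.16 for Csf3r.

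**Figure D2:**
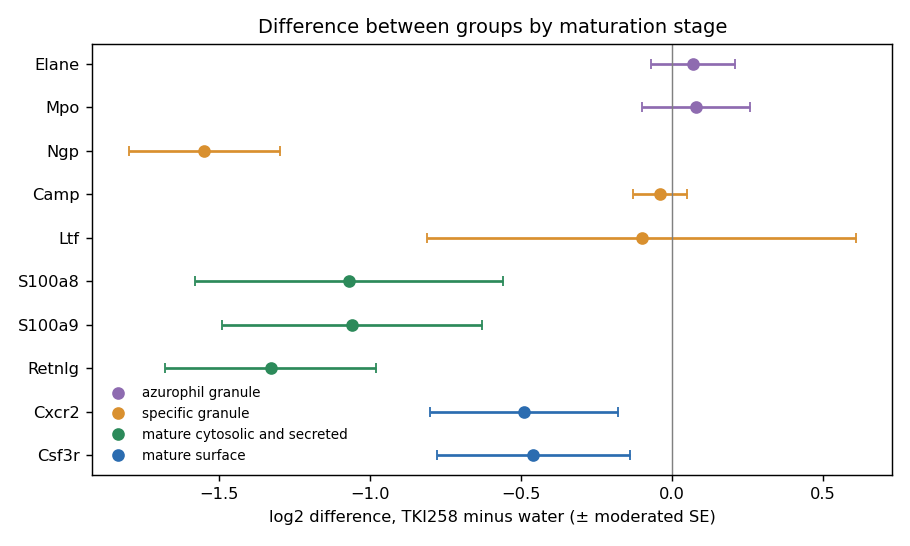
Log2 difference (horizontal axis, TKI258 minus water) of each gene with its moderated SE, coloured by stage. Ngp (-1.55) and the 3 mature cytosolic and secreted genes (-1.33 to -1.06) lie left of the receptors (-0.49 and -0.46), and the azurophil genes and Camp lie near 0.

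The stages were then compared within each tumor. Signals of different probe sets have no common scale, so each mean below is read only between tumors, as a difference between groups. The mean of the 5 mature genes was 8.31, 7.76 and 7.01 in TKI258 tumors and 8.01, 8.96 and 8.75 in water tumors, a difference of -0.88, which was -0.54 without TKI258 replicate 3 and -0.32 against water replicate 1 alone. The mean of the 3 specific granule genes was 5.38, 5.63 and 6.26 in TKI258 tumors and 6.58, 5.90 and 6.49 in water tumors, a difference of -0.56, and that of the 2 azurophil genes differed by 0.08. All 3 stage means overlapped between groups. The specific granule mean minus the mature mean was higher in TKI258 tumors by 0.32, with SDs of 1.10 in TKI258 tumors and 0.81 in water tumors. This difference turned to -0.28 without TKI258 replicate 3, to -0.09 without water replicate 2 and to -0.5 against water replicate 1 alone. The azurophil mean minus the mature mean was higher by 0.96, with values of -3.11, -2.32 and -1.75 in TKI258 tumors and -2.57, -4.01 and -3.48 in water tumors, with overlap. The granule genes did not share 1 difference, since that of Ngp had the largest size of the 10 and those of Camp, Elane and Mpo had the 3 smallest. No p was computed for these means, since the genes were chosen with results known.

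Within the mature genes, the cytosolic and secreted genes differed more between groups than the receptors, a comparison chosen after the values were seen. The mean of S100a8, S100a9 and Retnlg minus the mean of Cxcr2 and Csf3r was 0.08, -0.05 and -0.26 in TKI258 tumors and 0.41, 0.68 and 0.70 in water tumors. All TKI258 tumors lay below all water tumors, and the means were -0.08 ± 0.17 in TKI258 tumors and 0.60 ± 0.16 in water tumors (SD, n = 3 tumors each), a difference of -0.68. Keratinocytes can also make S100A8 and S100A9, and keratinocyte markers were high in water replicates 2 and 3. The mean over 10 of 11 listed keratinocyte markers that were measured was 5.08, 4.92 and 5.21 in TKI258 tumors and 5.07, 7.02 and 6.72 in water tumors, with Krt1 at 8.10 and 8.18 in water replicates 2 and 3 and at 4.51 to 4.62 in the other tumors. All 10 markers had lower means in TKI258 tumors and 0 passed limma's adjusted test. At an unadjusted limma p under 0.05, 7 were lower, against 3.35% of all genes. Water replicate 1, whose keratinocyte mean lay within the TKI258 range, had 0.41 for the cytosolic minus receptor value, above the highest TKI258 tumor at 0.08. Against water replicate 1 alone, an alternative chosen after seeing the data that assumes the lone tumor varies like the others, S100a8 differed by -0.42, S100a9 by -0.54, Retnlg by -0.58 and Ngp by -1.35, while Cxcr2 and Csf3r differed by -0.09 and 0.03 (limma adjusted p = 1 for each). These values rest on 1 water tumor, and the part of keratinocytes in the S100a8 and S100a9 differences was not tested.

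**Figure D3:**
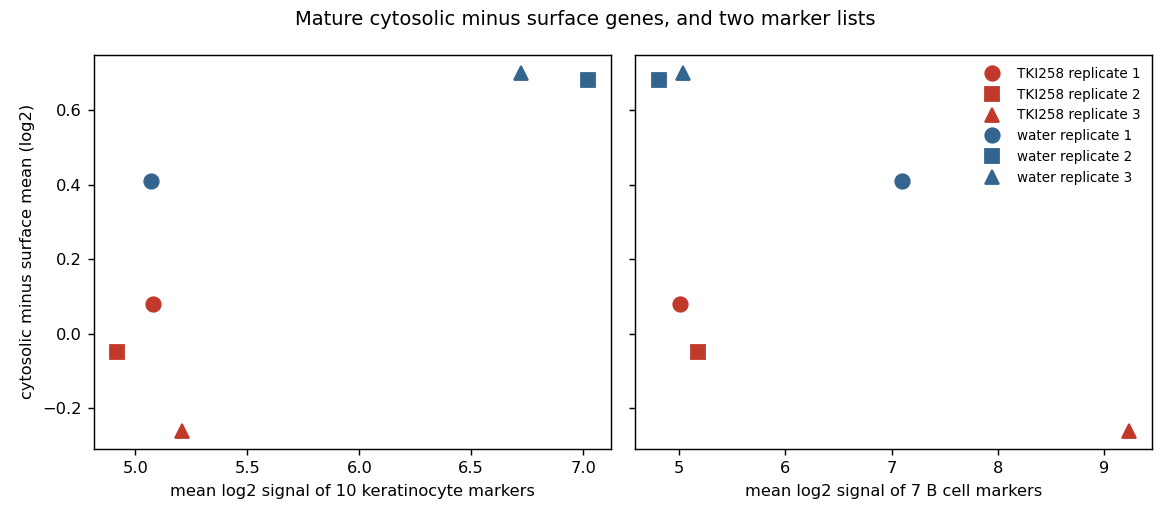
Mean log2 signal of S100a8, S100a9 and Retnlg minus that of Cxcr2 and Csf3r (vertical axes) against the mean of keratinocyte markers (left) and of B cell markers (right), 1 point a tumor. The 3 TKI258 tumors (red) lie between -0.26 and 0.08 and the 3 water tumors (blue) between 0.41 and 0.70, with water replicate 1 at a low keratinocyte value.

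The mature genes kept nearly the same order over the tumors, as a description over 6 tumors that share their arrays. Pearson's r was 0.85 to 0.98 over their 10 pairs, and 0.83 to 0.98 after the group means were taken out. Ngp did not follow this order: with the mature genes its r was 0.46 to 0.80 over 6 tumors but -0.12 to 0.16 without the group means. Ltf ran the other way, with r of -0.98 to -0.82 without the group means, and Camp had -0.88 to -0.67 over a very small range of signal. The lowest mature values were those of TKI258 replicate 3, the tumor with the highest B cell and adipocyte marker means (9.23 and 8.40), and the highest were those of water replicate 2, which also had the highest macrophage and mast cell marker means (10.02 and 7.11). The part of these cells in the order of the tumors was not tested.

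**Figure D4:**
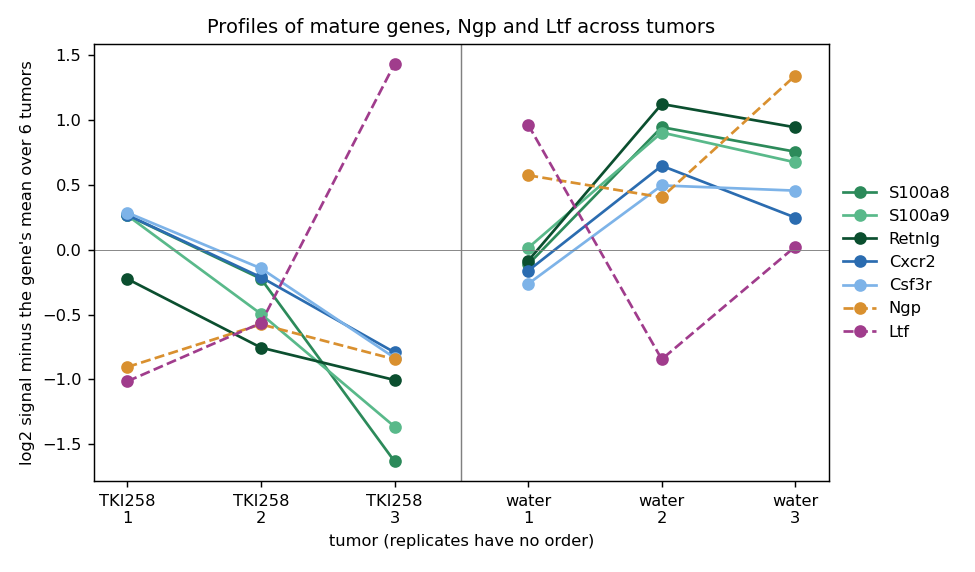
Log2 signal of 7 genes minus each gene's mean over the 6 tumors (vertical axis), with TKI258 tumors left and water tumors right; the lines join values of 1 gene only for the eye. The 5 mature genes (solid) move together and are lowest in TKI258 replicate 3, Ngp (dashed orange) is low in all TKI258 tumors, and Ltf (dashed purple) is highest in TKI258 replicate 3.

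Among 1222 genes with a mean above the median probe set and an SD of at least 0.3, the highest Pearson's r with Ngp over the 6 tumors was that of Bub1 (0.981), which encodes a spindle checkpoint kinase, followed by Kif4 (0.975), Cenpk (0.972), Hrob (0.971) and Mcm8 (0.962). Bub1, Kif4, Cenpk, Hrob and Mcm8, like Ngp, had every TKI258 tumor below every water tumor, as did 6.49% of all genes. Bub1 was 9.50, 9.69 and 9.46 in TKI258 tumors and 10.03, 10.15 and 10.38 in water tumors, with water replicate 3 highest as for Ngp. The genes most like the mean of Cxcr2 and Csf3r were Il1f9, an IL-1 family cytokine gene (0.996), the chemokine gene Cxcl2 (0.989), the prostaglandin synthase gene Ptgs2 (0.978), the chemokine gene Ccl3 (0.963) and Hcar2 (0.962). Il1f9 was 7.13, 6.60 and 5.72 in TKI258 tumors and 6.55, 7.69 and 7.40 in water tumors, with the same lowest and highest tumor as Cxcr2. These r values are the largest of many over 6 points, and the group means were not taken out of them.

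Other genes of the same stages were counted from lists that do not include the 10 genes. Of 14 other measured genes of the granule lists, 8 had lower and 6 higher means in TKI258 tumors (median difference -0.01). Of 21 other measured genes of mature neutrophils, 16 had lower and 5 higher means (median -0.35), against 43.4% of all genes with a lower mean. The largest lower differences of the 21, Stfa3 at -1.45 and Asprv1 at -1.13, were of genes high only in water replicates 2 and 3. Those tumors also had high keratinocyte markers. The part of other cells in this count was not tested. Non-overlapping lower values were found for 1 of the 14 and 4 of the 21, against 6.49% of all genes. Non-overlapping higher values were found for 3 of the 14 and 1 of the 21, against 8.66% of all genes. Of these 35 genes 0 passed limma's adjusted test. At an unadjusted limma p under 0.05, 4 were lower and 3 higher, against 3.35% and 3.79% of all genes.

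The other 4 genes of the azurophil granule list all had higher means in TKI258 tumors, at low signals. Prtn3, which encodes proteinase 3, was 5.70, 5.77 and 5.69 in TKI258 tumors and 5.38, 5.26 and 5.28 in water tumors (difference 0.41 ± 0.08, limma adjusted p = 0.484). Every TKI258 value was above every water value, as for 8.66% of all genes. Ms4a3, a transcript of granulocyte precursors, differed by 0.31 ± 0.10 without overlap (limma adjusted p = 0.574), and the protease gene Ctsg by 0.14 ± 0.09 with overlap.

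Among the other specific granule genes, Lcn2, which encodes the siderophore-binding protein lipocalin 2 and is also made by epithelium, was 12.13, 11.68 and 11.44 in TKI258 tumors and 11.43, 11.38 and 11.15 in water tumors (difference 0.43 ± 0.18, limma adjusted p = 0.629). Its groups did not overlap, but TKI258 replicate 3 was only just above water replicate 1. Mmp8, which encodes neutrophil collagenase, differed by -0.37 ± 0.43, and Chil3 by 0.20 ± 0.19, both with overlap. Of the gelatinase granule genes, Mmp9 (gelatinase B) was 9.81, 9.51 and 8.79 in TKI258 tumors and 10.06, 10.20 and 9.88 in water tumors (difference -0.68 ± 0.25, limma adjusted p = 0.604), without overlap, and Adam8 differed by -0.25 ± 0.14.

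Ly6g, which encodes the surface antigen used to identify mouse neutrophils, resembled Ngp in separating the groups at a low signal. It was 4.37, 4.27 and 4.33 in TKI258 tumors and 4.82, 5.15 and 5.54 in water tumors (difference -0.84 ± 0.18; limma adjusted p = 0.484). As for Ngp, water replicate 3 was highest and no TKI258 tumor reached a water tumor. Trem3, a myeloid receptor gene, differed by -0.37 ± 0.14 without overlap (limma adjusted p = 0.604). Among cytosolic and secreted genes, the stefin gene Stfa3 differed by -1.45 ± 0.61 (limma adjusted p = 0.621), with 5.0, 4.46 and 4.05 in TKI258 tumors and 4.48, 6.76 and 6.63 in water tumors, so that only water replicates 2 and 3 were high. Wfdc21 went the other way, 0.31 ± 0.11 higher without overlap (limma adjusted p = 0.594).

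**Figure D5:**
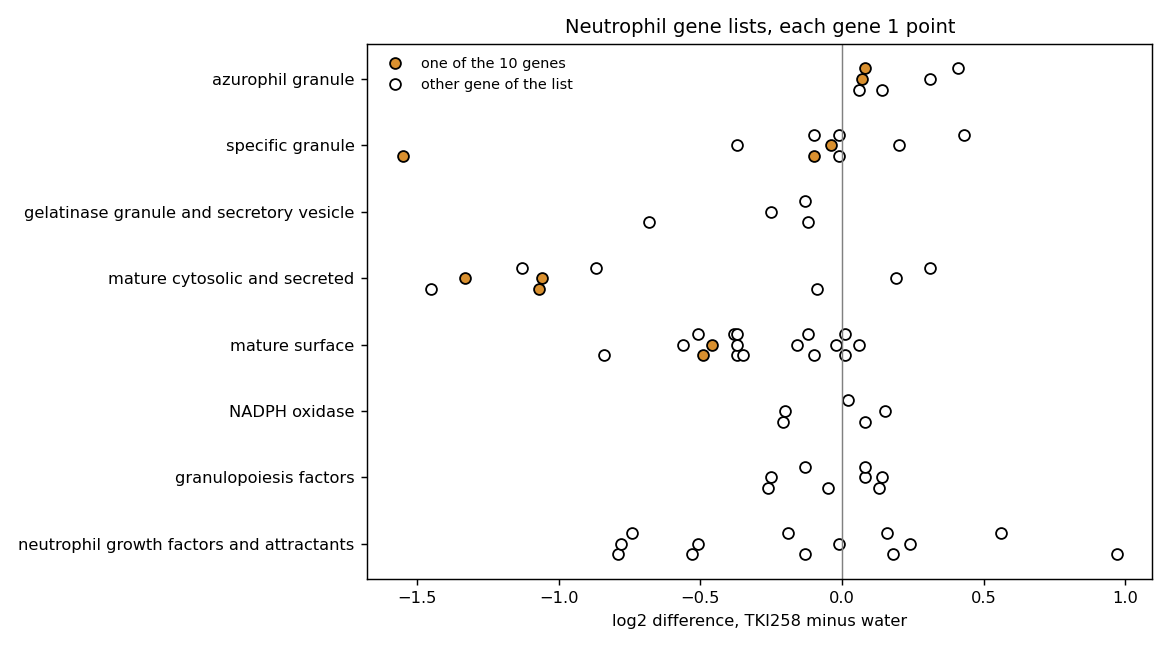
Log2 difference (horizontal axis, TKI258 minus water) of every measured gene of 8 neutrophil lists, 1 point a gene, with the 10 genes in orange; vertical offsets within a row only separate points. Both lists of mature genes lie mostly left of 0, and all 6 points of the azurophil list lie right of 0.

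Genes of neutrophil formation and attraction were read next. Of 8 transcription factor genes of granulopoiesis, 4 had lower and 4 higher means, and 0 passed limma's adjusted test. Cebpe, which encodes the factor needed for specific granules, differed by 0.08 ± 0.09, and Cebpd and Spi1 by -0.26 ± 0.15 and -0.25 ± 0.15. Of 5 measured NADPH oxidase genes, which serve the oxidative burst, 2 had lower and 3 higher means, with 0.15 ± 0.10 for Ncf1 and -0.20 ± 0.14 for Ncf4.

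Of 13 growth factor and attractant genes, 8 had lower and 5 higher means, and 0 passed limma's adjusted test. Csf3, which encodes G-CSF, was 7.73, 7.74 and 6.80 in TKI258 tumors and 7.41, 7.37 and 7.87 in water tumors (difference -0.13 ± 0.28, limma adjusted p = 0.906). The CXCR2 ligand genes Cxcl1, Cxcl2 and Cxcl5 differed by -0.51 ± 0.32, -0.74 ± 0.50 and -0.53 ± 0.43, all with overlap, and Cxcl3, Ppbp and Cxcl15 of the same list by -0.19 ± 0.37, 0.18 ± 0.35 and 0.56 ± 0.43. Cxcl2 was 8.83, 8.31 and 7.28 in TKI258 tumors and 8.06, 9.58 and 8.99 in water tumors, lowest in TKI258 replicate 3 and highest in water replicate 2, as were Cxcr2 and Csf3r. Il1b differed by -0.79 ± 0.34 (limma adjusted p = 0.624). Cxcl12, the stromal ligand of CXCR4 that retains neutrophils in the marrow, differed by 0.97 ± 0.28, with 7.62, 7.54 and 8.09 in TKI258 tumors and 7.11, 6.18 and 7.05 in water tumors (limma adjusted p = 0.572). Its groups did not overlap, with every TKI258 tumor above every water tumor.

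Markers of other cells were set beside these values. Adipocyte markers were higher for 6 of 6 (median difference 1.56). Their means were 6.88 to 8.40 in TKI258 tumors and 5.56 to 6.75 in water tumors, without overlap. At an unadjusted limma p under 0.05, 5 of the 6 were higher, against 3.79% of all genes. Mast cell markers, 6 of 6 lower (median difference -0.51), had means of 5.71 to 6.04 in TKI258 tumors and 5.69 to 7.11 in water tumors, with overlap. The part of the adipocyte and mast cell content in the values of the neutrophil genes was not tested. The mean of 11 macrophage markers was 9.34 to 9.46 in TKI258 tumors and 9.40 to 10.02 in water tumors, with 10 of 11 lower. The mean of 3 measured monocyte markers was 8.76 to 8.92 in TKI258 tumors and 8.70 to 9.04 in water tumors. Eosinophil markers, 5 of 5 higher, had means of 4.97 to 5.27 in TKI258 tumors and 4.86 to 5.02 in water tumors, and Epx and Prg2, which encode eosinophil granule proteins, were 4.27 to 4.98 over all tumors. The 4 measured erythroid markers had means of 5.24 to 5.38 in TKI258 tumors and 5.28 to 5.59 in water tumors, highest in water replicate 3, where the heme synthesis gene Alas2 was 7.37. The other erythroid markers did not share this: Epb42 was 4.28 in that tumor against 4.31 to 4.60 in TKI258 tumors, Klf1 was 4.60 against 4.60 to 4.78, and 2 of the 4 had higher means in TKI258 tumors. Ngp was highest in water replicate 3 too, and the part of blood or marrow-derived precursors in it was not tested. Of these markers 0 passed limma's adjusted test.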

How the data were processed

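RNA of 6 tumors was measured on Affymetrix arrays, and samples were grouped by their titles into 3 TKI258 and 3 water tumors, called biological replicates. The table deposited by the authors holds RMA values on the log2 scale, 1 for each probe set; the submitters' processing notes name RMA, affy and limma, with no version. The genome build behind the array's annotation is not given in the sources used here; promoter sequences come from RefSeq on GRCm38.p6. RMA normalizes across arrays, so values are relative to the bulk of probes. By the platform annotation 21640 probe sets named 1 gene, 1321 several and 11799 none; genes were read only from the first kind.

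From the deposited log2 values, the 2 groups were compared in a limma model (R 4.3.3, limma 3.58.1, eBayes) with group as the only term, two-sided, unfiltered, adjusted by Benjamini-Hochberg over 34760 probe sets, with a threshold of 0.05. An exact permutation test cannot go below p = 0.1 with 3 against 3 tumors. Arrays correlated at 0.973 to 0.993. The number of arrays limits the precision, and no detection calls were used.

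The genes and lists were chosen with earlier results of these data known. The text names the 10 genes, the 2 other genes of each neutrophil list with the smallest p, a set of further neutrophil genes fixed in the design, the 5 genes most correlated with Ngp and with the mean of Cxcr2 and Csf3r, and markers of other cells. Some list members were not analysed here. The limma script was tested on simulated data. The alternatives left out each array, added a replicate block, used quantile normalization, median centring, a low-signal filter, a trended robust prior, array weights, all probe sets of a gene or a threshold of 0.1, and, chosen after seeing the data, left out 2 arrays high in B cell or 2 high in keratinocyte markers.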

Additional observations from a re-analysis of the deposited data

How the results depend on the processing

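Of 156 differences of the 10 genes under the alternatives, 146 kept their direction, and 0 passed the threshold, at 0.05 or at 0.1. The replicate block, trended robust prior, low-signal filter, threshold of 0.1 and mean of all probe sets leave each difference as it was. Their part of the 146 could not turn and is no support. The 10 that turned were Elane without TKI258 replicate 2 (-0.02), without water replicate 2 (-0.04) and against water replicate 1 alone (-0.01); Mpo without water replicate 2 (-0.08), with array weights (-0.04) and against water replicate 1 alone (-0.29); Ltf without TKI258 replicate 1 (0.38), TKI258 replicate 2 (0.16) or water replicate 1 (0.36); and Csf3r against water replicate 1 alone (0.03). Without single arrays the difference was -0.04 to 0.15 for Elane, -0.08 to 0.27 for Mpo and -0.84 to 0.38 for Ltf. The difference of the azurophil minus the mature mean was 0.17 against water replicate 1 alone. The cause was not tested. Over all probe sets 0 passed, with 0 to 3 when single arrays were left out (3 without water replicate 1) and 1 without TKI258 replicate 3 and water replicate 1, the arrays with the highest B cell markers. The lower genes numbered 7 to 10 of the 10 without single arrays. Without single arrays the adjusted p of Ngp was 0.392 to 0.798, and over all alternatives 0.296 to 1. The low-signal filter left 6 of the 10 genes, and all 6 had lower means as before, since the filter changes no difference. The mean of all probe sets changed nothing, as each gene had 1. Depth does not apply to arrays; 4 of the 10 genes had means below the median probe set, and their low signals limit what can be seen.

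The labels do not say that the replicate numbers pair the tumors. Deviations of same-numbered tumors correlated at -0.23, 0.19 and 0.01. TKI258 replicates 1 and 3 correlated best with another number and TKI258 replicate 2 with its own. Deviations from the means of 3 tumors cannot exclude a pairing. With the replicate block 0 of the 10 genes and 0 probe sets passed. The block leaves the differences of these balanced groups as they were, so the same 8 of the 10 had lower means.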
